A study of Homo sapiens with 12 samples.

Results

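The 743 regions described here carried an H3K27ac peak in both libraries of Ishikawa, an endometrial carcinoma line, and in the library of BICR31. The design text gives BICR31 as squamous and from head and neck. The regions had no peak in the lists of H358, H2009 and HCC95 that were used to choose them. Further H2009 libraries were not used for the choice, and 26 of the 743 regions had a peak in at least 1 of them. Below, peaks of H2009 are those in the lists used for the choice, unless the further libraries are named. The 743 regions were found by joining overlapping peaks (minimum overlap 1 bp) of 8 untreated peak lists on chromosomes 1 to 22. This gave 68750 regions in all. The rule thus took 1.08% of the regions. The members were thus chosen by the deposited peak calls of these 8 lists, and all their values in these lists are descriptions with no test.

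The 8 lists came from Ishikawa (2 libraries), BICR31 (1), the lung adenocarcinoma lines H358 (2) and H2009 (2) and the squamous lung line HCC95 (1). H2009 also had 4 libraries that the rule did not use, with the labels Empty, Control, e3KRAB1 and e3KRAB2. All 12 samples were grown in RPMI medium with fetal bovine serum, were labelled as not treated and were precipitated with the same H3K27ac antibody. The sample label of BICR31 says lung adenocarcinoma, against the design text, and the peaks of the library labelled e3KRAB2 carry the tag Ctrl2 in their names. Nothing in the labels says whether replicates came from separate cultures.

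Acetylation of lysine 27 on histone H3 marks active promoters and enhancers. Enhancers are the more cell-type-specific of the pair, and lines of different origin usually share promoters more than enhancers. Whether the regions shared by an endometrial and a squamous line are strong and centred on the same place, or wide peaks that touch, was read from the strength, width and position of their peaks.

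The lists differ in form and in how wide their peaks are. Ishikawa replicates 1 and 2 had 23623 and 26474 peaks of median width 1522 and 963 bp, and BICR31 had 41161 peaks of 896 bp. The other 5 lists had 22850 to 26344 peaks, with median widths of 348 to 383 bp in H358 and H2009 and 823 bp in HCC95. The strength of a peak is the authors' value within its own list, a score starting at 50 in Ishikawa and a fold enrichment over local background elsewhere, and is given here as a percentile of that list. Read depth is unknown. Fewer cells with a mark and less of it per cell cannot be told apart in such lists.

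Member regions were weaker than regions common to all lists in each of the 3 lists that define them. Their best peak stood at a median percentile of 36.8 in Ishikawa replicate 1, 40.5 in replicate 2 and 39.7 in BICR31, against 79.7, 81.4 and 80.0 in the 8409 core regions, which had a peak in all 8 lists. Regions of Ishikawa alone (3495) stood at 30.9 and 32.5, and regions of BICR31 alone (15150) at 35.5, so members lay between single-line and core regions and nearer to single-line ones. The 95% intervals of the members' medians were 35 to 38.3 in Ishikawa replicate 1, 38.1 to 42.6 in replicate 2 and 36 to 42.8 in BICR31, and those of the single-line regions lay below them in Ishikawa, at 29.9 to 31.6 and 31.6 to 33.3. In BICR31 the single-line interval, 34.9 to 36.2, met that of the members. As deposited, the median member score was 108 in Ishikawa replicate 1 and 118 in replicate 2, against 93.5 and 95.8 in regions of Ishikawa alone. The median fold enrichment in BICR31 was 3.63 in members and 3.56 in regions of BICR31 alone.

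**Figure D1:**
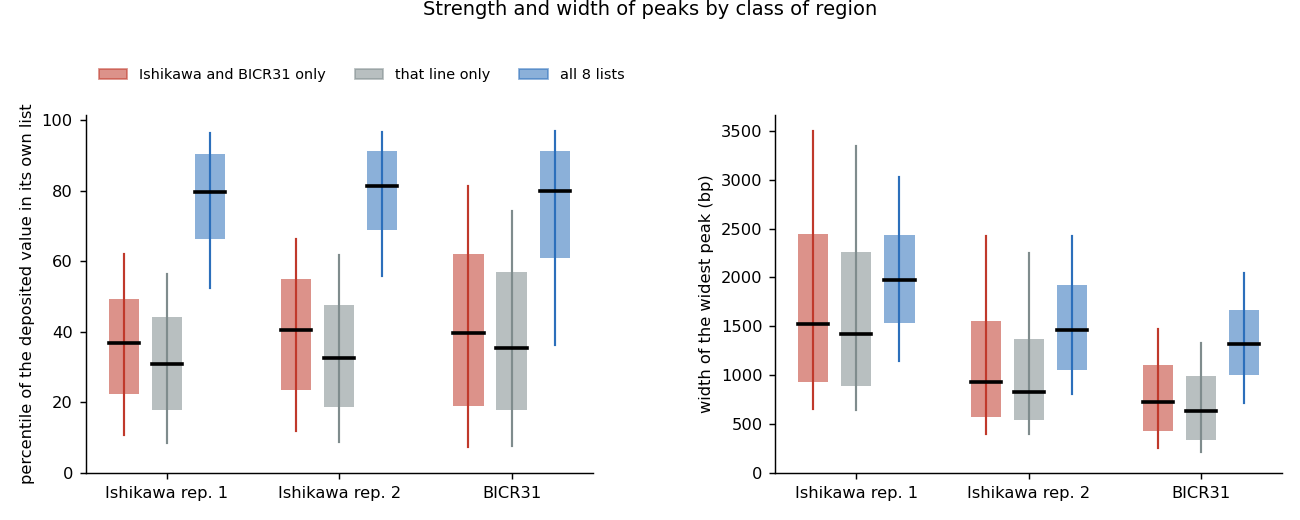
Percentile of the deposited value (left, percent of peaks in the list) and width of the widest peak in base pairs (right) for member regions, regions of that line alone and core regions, in the 2 Ishikawa lists and BICR31. Black lines are medians, boxes the 25th to 75th and thin lines the 10th to 90th percentile of regions; members sit near the single-line regions in percentile, with medians of 36.8, 40.5 and 39.7, against 79.7 or more in core regions.

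Few members were strong in both lines. In 59 of the 743 members (7.94%, 95% Wilson interval 6.21 to 10.1) the best peak lay in the higher-ranked 50% of all 3 lists, against 57.1% of all 13851 regions with a peak in these lists. The reverse, a best peak in the lower-ranked 50% of all 3 lists, held for 296 members (39.8%), against 8.43% of the same 13851 regions. Since core regions make up most of that background and the rule left them out, these shares describe the choice of members. The BICR31 percentile was also lower than in the pairs that BICR31 formed with other lines, where its median was 42.7 with HCC95 (2475 regions), 44.5 with H358 (385) and 52.1 with H2009 (564).

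The deposited values of Ishikawa and BICR31 had little relation across members. They are different quantities, a score in Ishikawa and a fold enrichment in BICR31, and how far this lowers the relation was not tested. Across the 743 members, the deposited values of the 2 Ishikawa replicates had a Spearman rho of 0.68. Those of BICR31 had a rho of 0.12 with replicate 1 and 0.075 with replicate 2. In the core regions the value of Ishikawa replicate 1 had a rho of 0.11 with BICR31, so the weak relation was not limited to members. Peak widths gave 0.81 between the Ishikawa replicates and 0.22 and 0.15 between these and BICR31. In core regions the widths had higher rhos with BICR31, 0.45 and 0.37. The replicates share a line and a file form, and regions within a list share 1 library.

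The strongest member by its lowest percentile lay at chromosome 5, 90650 to 92952 (hg19, 2303 bp), with scores of 331 and 370 in Ishikawa and a fold enrichment of 5.26 in BICR31. Its lowest percentile was 83.8, and the BICR31 peak of 1081 bp lay wholly within both Ishikawa peaks. The next was a 3244 bp region at chromosome 1, 238647364 to 238650607, with scores of 349 and 506 and a fold enrichment of 4.41. The nearest peak of H358, H2009 or HCC95 to it was 119466 bp away, and distances to other Ishikawa or BICR31 peaks were not measured. The region at chromosome 6, 150283616 to 150285702, had scores of 271 and 295 and a fold enrichment of 5.62.

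Among the 10 strongest members, 7 more followed at lowest percentiles of 65.4 to 71.4. The region at chromosome 12, 68977960 to 68979595, had the highest BICR31 value of these 10, a fold enrichment of 6.53 over a peak of only 378 bp, with Ishikawa scores of 252 and 282. At chromosome 14, 94253635 to 94256759, a BICR31 peak of 215 bp with a fold enrichment of 6.22 sat inside an Ishikawa peak of 3125 bp. By contrast, at chromosome 1, 160369424 to 160371215, the peaks of the lines were of like size, 1575 and 1424 bp in Ishikawa and 1560 bp in BICR31. The others of the 10 were at chromosome 1, 181102302 to 181105441, chromosome 11, 31390594 to 31392183, chromosome 7, 6034237 to 6036372, and chromosome 12, 14666300 to 14668531. All 10 had no peak in the further H2009 lists.

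Members were wider than single-line regions, by less than the range from the 25th to the 75th percentile among members, 1189 to 2624.5 bp. Their median region width was 1752 bp (interval of the median 1664 to 1854), against 1514 bp for Ishikawa alone, 632 bp for BICR31 alone and 859 bp over all regions. A region joined from 3 lists has more chance to be wide than one from 1 list, so the peaks within it are the fairer measure. The widest Ishikawa peak in a member had a median of 1524 bp in replicate 1 and 927 bp in replicate 2, against 1425 and 827 bp in regions of Ishikawa alone. The interval of the median in replicate 1, 1413 to 1617 bp, overlapped that of regions of Ishikawa alone, 1383 to 1468 bp, and in replicate 2, 865 to 1001 bp lay above 808 to 846 bp. The BICR31 peak had a median of 728 bp in members and 632 bp in regions of BICR31 alone, and of 1318 bp in core regions.

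In most members the BICR31 peak was shorter than the Ishikawa peak, but it lay wholly inside that peak in most members only for replicate 1. The BICR31 peak was the shorter one in 620 of 743 members (83.4%) against Ishikawa replicate 1 and in 463 (62.3%) against replicate 2, and lay wholly inside the Ishikawa peak in 485 (65.3%) and 316 (42.5%). The median shared length was 618 bp with replicate 1 and 460 bp with replicate 2. In 636 members (85.6%, 82.9 to 87.9) the BICR31 peak and both Ishikawa peaks shared at least 50% of the shorter one. With every peak set to 500 bp around its centre this held for 48% of the 684 regions that then met the rule, and with 200 bp for 32.9% of 583. Peak centres were a median of 231 and 224 bp apart, within 250 bp in 391 (52.6%) and 399 (53.7%) of the members. Each of the 3 lists held exactly 1 peak in 623 members.

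A minority of members was held together by little overlap. In 41 members (5.52%) at least 1 Ishikawa library shared no base with BICR31 and the region was joined through the other. The members just inside the 1 bp rule shared at most 14 bp (chromosome 6, 112524884 to 112527480), 33 bp (chromosome 12, 116755635 to 116758328) and 37 bp (chromosome 3, 130567667 to 130570115). Just outside it, an Ishikawa region at chromosome 3, 191439524 to 191440170, and a BICR31 region ending at 191439495 missed each other by 28 bp. The next closest pairs, on chromosomes 10 and 9, were 62 and 78 bp apart. The widest members were also lopsided: the 8058 bp region at chromosome 13, 34181783 to 34189840, held Ishikawa peaks of 7887 and 6550 bp and a BICR31 peak of 634 bp.

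In the other 4 of the 5 widest members the BICR31 peak was also shorter than the wider Ishikawa peak. At chromosome 14, 81847854 to 81855575, Ishikawa peaks of 6457 and 7645 bp met a BICR31 peak of 211 bp, the shortest width in that list. At chromosome 19, 18806467 to 18813363, the peaks were 6897 and 6654 bp in Ishikawa and 608 bp in BICR31. At chromosome 15, 58764679 to 58771110, the BICR31 peak of 1214 bp stood at percentile 1.21 of its list and shared no base with 1 of the Ishikawa libraries. At chromosome 16, 69739790 to 69746197, the BICR31 peak of 1070 bp shared 419 to 483 bp with Ishikawa peaks of 5565 and 675 bp.

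Peak centres of the lines lay together far more often than beside each other. Among the 4238 Ishikawa regions without a peak of H358, H2009 or HCC95, the nearest BICR31 peak that those lines also lacked was centred within 500 bp in 582 by replicate 1 and 565 by replicate 2. Between 500 and 1000 bp there were 127 and 146, and between 1000 and 1500 bp 58 and 48. Between 1500 and 5000 bp the number was 24.5 to 35 for each 500 bp of distance, and between 5000 and 10000 bp it was 21.1 and 21.7. Only the nearest peak was counted, which lowers the outer numbers. BICR31 peaks inside an Ishikawa region lacked the other lines through the choice of the region. Those outside had to meet this condition separately, which also lowers the outer numbers. Centre distances were not free of peak width, since the caller places the edges that define the centre. In the 5 widest members the largest distance between an Ishikawa and the BICR31 centre was 1497 to 3686.5 bp.

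**Figure D2:**
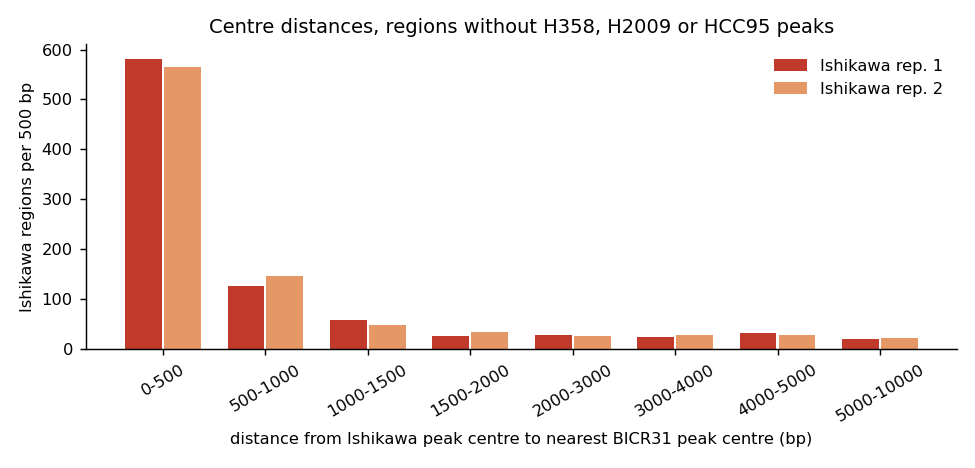
Distance in base pairs from the centre of the Ishikawa peak to the nearest BICR31 peak centre (horizontal axis) and the number of Ishikawa regions per 500 bp of distance (vertical axis), for 4238 regions without H358, H2009 or HCC95 peaks, by Ishikawa replicate. The innermost bin holds 582 and 565 regions, against 21.1 and 21.7 per 500 bp between 5000 and 10000 bp.

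A BICR31 peak was found in 743 of these 4238 Ishikawa regions, or 17.5% (16.4 to 18.7). The share varied more with the strength of the Ishikawa peaks than with their width. In 4 groups of about equal size by width, from narrow to wide (median widths 590, 940, 1431 and 2515 bp), it was 16.3%, 17%, 16.3% and 20.6%. In 4 groups by percentile of the score, from low to high, it was 13.4%, 14.2%, 19.1% and 23.5%. Width and percentile were also each split into 3 groups, and within no group of like strength was the share highest for the widest peaks. In the strongest group the share was 30.4% (28 of 92) for narrow, 23.3% (103 of 442) for middle and 22.8% (200 of 879) for wide Ishikawa peaks. In the middle group it was 20% (89 of 444), 12.9% (76 of 587) and 17.6% (67 of 381), and in the weakest group 13.5% (118 of 877), 11.5% (44 of 383) and 11.8% (18 of 153). Seen from BICR31, of 15893 regions with no peak in the other lines, the share with both Ishikawa peaks was 3.52%, 4.10%, 4.94% and 6.14% from the narrowest to the widest BICR31 peaks, and 4.50%, 4.05%, 4.48% and 5.66% from the weakest to the strongest.

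**Figure D3:**
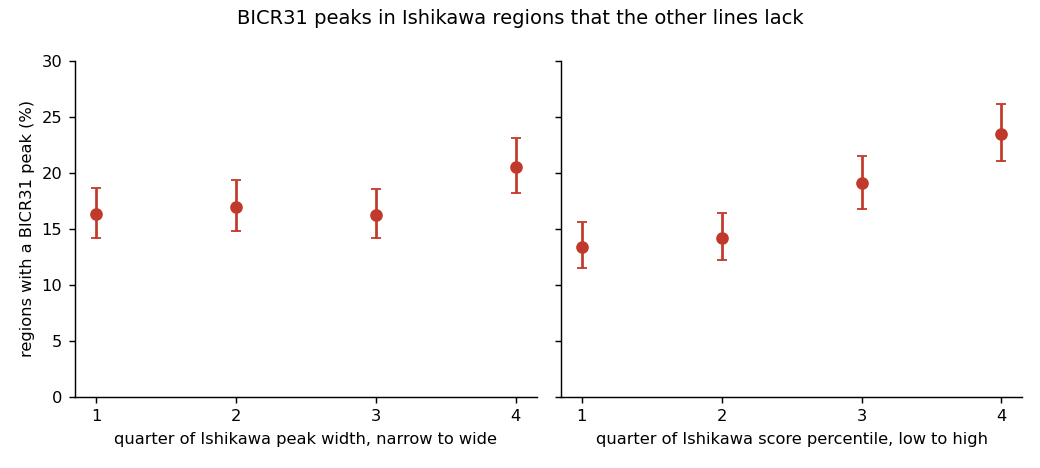
Percent of Ishikawa regions without H358, H2009 or HCC95 peaks that had a BICR31 peak (vertical axis), in 4 groups of about equal size by width of the Ishikawa peaks (left) and by percentile of their score (right). Points are shares and bars 95% Wilson intervals, which cover counting error only; shares run between 16.3% and 20.6% by width and between 13.4% and 23.5% by percentile.

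Ishikawa shared a smaller part of its regions with BICR31 than the other lines did. Of regions that a line had and the other lines apart from BICR31 lacked, a BICR31 peak was present in 17.5% in Ishikawa, 36.6% (2475 of 6758) in HCC95, 39.4% (564 of 1430) in H2009 and 29.7% (385 of 1298) in H358. The intervals of Ishikawa and of the other lines did not overlap. HCC95 needed a peak in 1 library and the other lines in 2, and file form and peak width differ between lines. With each peak replaced by 500 bp around its centre, the shares were 16.1% in Ishikawa, 30.6% in HCC95, 34.3% in H2009 and 25.1% in H358. With 200 bp around each centre they were 15.6%, 20.6%, 18.4% and 12.4%, so that Ishikawa then stood above H358. With lists of equal length they were 8.62%, 17.7%, 25.1% and 15.5%.

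**Figure D4:**
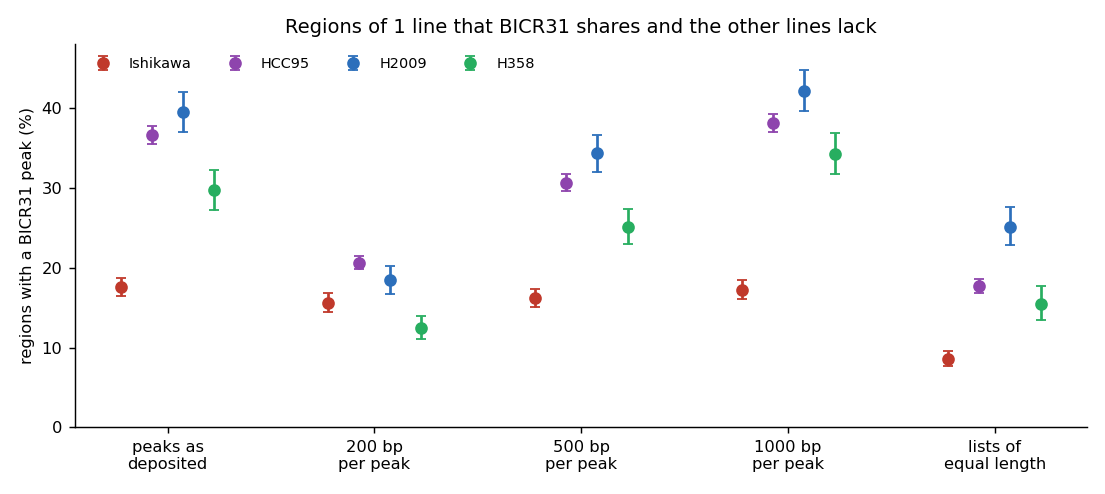
Percent of the regions of 1 line, lacking in the other lines apart from BICR31, that had a BICR31 peak (vertical axis), for Ishikawa, HCC95, H2009 and H358, with peaks as deposited, with peaks set to 200, 500 or 1000 bp around their centre and with lists of equal length. Bars are 95% Wilson intervals; Ishikawa has the lowest share in each setting except 200 bp, where it stands at 15.6% and H358 at 12.4%.

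With peaks as deposited, members lay against peaks of the excluded lines about as often as regions of Ishikawa alone did. A peak of H358, H2009 or HCC95 came within 1000 bp of 41 members (5.52%, 4.09 to 7.40), against 7.16% of all 24035 regions that had no such peak, 5.46% of regions of Ishikawa alone and 7.70% of regions of BICR31 alone. The share of members was 9.43% without Ishikawa replicate 1, 15.8% with 500 bp around each peak centre and 50.3% with 200 bp. The median distance to such a peak was 14222 bp. Many regions missed the rule by 1 list. A total of 511 regions had a peak in BICR31 and in only 1 Ishikawa list, and 843 had all 3 peaks and a peak in exactly 1 excluded list. HCC95 was that list in 444 of these, and each H358 or H2009 library in 82 to 122. These numbers are not alike, since regions with peaks in both replicates of H358 or H2009 were not counted, whereas HCC95 had only 1 library.

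Members were somewhat nearer to core regions than single-line regions were. A core region came within 12.5 kb of 89 members (12%, 9.84 to 14.5), against 9.25% of all regions other than core ones, 7.81% of regions of Ishikawa alone and 9.29% of regions of BICR31 alone. The median distance was 77278 bp, against 145549 and 95130 bp in the single-line regions. Other pairs of lines reached similar values, so nearness to core regions was not particular to members. Their shares ran from 3.70% (H2009 and HCC95) to 13.2% (H358 and Ishikawa, 16 of 121). Their median distances ran from 72620 bp (H2009 and BICR31) to 355360 bp (H2009 and HCC95). Another member lay within 12.5 kb of 16 members (2.15%). The share was 12.4% in regions of Ishikawa alone and 24.3% in regions of BICR31 alone, classes with more regions and thus more chance of a neighbour. Among other pairs it was 0.709% for H2009 and BICR31 (564 regions), 1.56% for H358 and BICR31 (385) and 1.30% for HCC95 and Ishikawa (307). It was 6.69% for H358 and H2009 (344) and 6.75% for HCC95 and BICR31 (2475), and the smaller pairs had no such region. A low share was thus not particular to members. The 16 members formed 8 runs of 2, the shortest at chromosome 21, 14353016 to 14359398. Others lay at chromosome 19, 3707569 to 3715256 and 1154367 to 1162341, chromosome 11, 67329020 to 67340840, and chromosome 4, 111541474 to 111553991.

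The members were spread over all 22 chromosomes. Their share of the regions ran between 0.665% on chromosome 2 (39 of 5869, 0.486 to 0.907) and 1.77% on chromosome 21 (15 of 849, 1.07 to 2.89), around 1.08% in all. Chromosome 10 had 1.65% (50 of 3028, 1.25 to 2.17) and chromosome 22 1.69% (24 of 1418, 1.14 to 2.51). With 22 chromosomes compared, single intervals that miss the common share are not a test.

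Loci of 39 genes, with positions on hg19 entered by hand from general knowledge and 100 kb added on each side, were looked up for members. The windows did not settle between the 2 labels of BICR31. In the window of KRT5, a basal keratin of squamous epithelium, BICR31 had peaks in 10 of 14 regions, HCC95 in 8, the Ishikawa replicates in 2 and 0, and the H358 and H2009 libraries in 0 or 1. In the window of SOX2, a transcription factor gene often gained in squamous cancer, there were peaks in 5 of 6 regions in BICR31 and in HCC95, in 0 in either Ishikawa replicate and in 2 or 3 in the H358 and H2009 libraries. BICR31 had more regions with a peak than any H358 or H2009 library in all 7 squamous windows. This also held in most windows outside the squamous list, and in most of the epithelial ones, so it was not particular to squamous genes. In that of the lung surfactant gene SFTPC it had 14, against 11 and 12 in H358 and 4 and 3 in H2009. In that of the lung gene FOXA1 it had 7, against 3 and 3 in H358 and 0 in H2009. In that of the receptor gene EGFR it had 19, against 6 to 8 in H358 and H2009. It did not hold for the lung genes NKX2-1 and SFTPB. BICR31 had 4 in the window of NKX2-1, against 5 and 6 in H358. In that of SFTPB it had 9, against 10 in H2009 replicate 2. BICR31 has the longest list. HCC95, squamous by its label, did not stand above H358 and H2009 in the windows of PITX1 and TFAP2A. Only 5 of the 555 regions in the 39 windows were members, or 0.901%, against 1.08% of all regions. None lay in the windows of the 7 squamous, 6 WNT pathway or 4 lung genes, 1 lay among the 9 endometrial and 4 among the 13 epithelial ones.

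The member in the window of ESR1, which encodes the oestrogen receptor alpha of hormone-responsive endometrium and breast, lay at chromosome 6, 152084398 to 152087103. It had scores of 204 and 168 in Ishikawa and a fold enrichment of 4.12 in BICR31, and its lowest percentile of 54.0 was the highest of the 5. The BICR31 peak of 1013 bp lay wholly inside both Ishikawa peaks. Of the 21 regions in that window, 7 and 10 had peaks in the Ishikawa replicates, 8 in BICR31 and 0 in HCC95. The H358 replicates had peaks in 3 and 4 of them and the H2009 replicates in 5 and 2.

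FGFR2 is a growth factor receptor of epithelia that is mutated in some endometrial cancers. In its window of 19 regions, HCC95 had peaks in 9, the Ishikawa replicates in 9 and 6 and BICR31 in 5. H358 and H2009 had no peak in any of them. The member in the FGFR2 window lay at chromosome 10, 123367760 to 123368921, with scores of 66.3 and 124 and a fold enrichment of 3.93. There 1 Ishikawa library shared no base with the BICR31 peak of 255 bp. The members near CDH1, the gene of the epithelial adhesion protein E-cadherin (chromosome 16, 68812153 to 68813369), near the receptor gene ERBB2 (chromosome 17, 37871798 to 37873459) and near the simple-epithelium keratin gene KRT7 (chromosome 12, 52594209 to 52598206) were weak, with lowest percentiles of 26.4, 20.1 and 3.31. The KRT7 member held Ishikawa scores of 55.3 and 77.3 and a BICR31 fold enrichment of 2.83.

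The 4 further H2009 lists, which the rule did not use, had peaks in a small number of mostly compact members. These lists were short, with 1938 peaks in Empty, 3204 in Control, 2281 in e3KRAB1 and 1349 in the library labelled e3KRAB2. Even of core regions, each list had a peak in only 11.4% to 26.1%, so low shares are expected in any class. A peak in at least 1 of them was found in 26 members (3.50%, 2.40 to 5.08), against 7.71% of all regions, 0.429% of regions of Ishikawa alone and 0.350% of regions of BICR31 alone. Other pairs of lines had such peaks too: 10 of 385 regions of H358 and BICR31 (2.60%, 1.42 to 4.71), 2 of 307 of HCC95 and Ishikawa (0.651%) and 13 of 2475 of HCC95 and BICR31 (0.525%), beside pairs that hold H2009 itself, with 9 of 91 for H2009 and Ishikawa (9.89%) and 52 of 564 for H2009 and BICR31 (9.22%). By list it was 15 members in Empty (2.02%), 19 in Control (2.56%), 13 in e3KRAB1 (1.75%) and 13 in the library labelled e3KRAB2 (1.75%). Over all regions the shares were higher in each list, at 2.70%, 4.42%, 3.17% and 1.89%. In 10 members all 4 lists had a peak, although both untreated H2009 lists had none. This held for 10 of 743 members (1.35%, 0.733 to 2.46), against 3 of 3495 regions of Ishikawa alone (0.0858%), 2 of 15150 of BICR31 alone (0.0132%) and 0 of 2475 of the HCC95 and BICR31 pair, which allows a share of up to 0.121%. All 4 lists also had a peak in 1 of 91 regions of H2009 and Ishikawa (1.10%, 0.194 to 5.96) and in 1 of 307 of HCC95 and Ishikawa (0.326%, 0.0575 to 1.82), intervals that reach the share of the members. Over all 68750 regions the share was 0.412%, and in core regions it was 2.47% (208 of 8409).

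**Figure D5:**
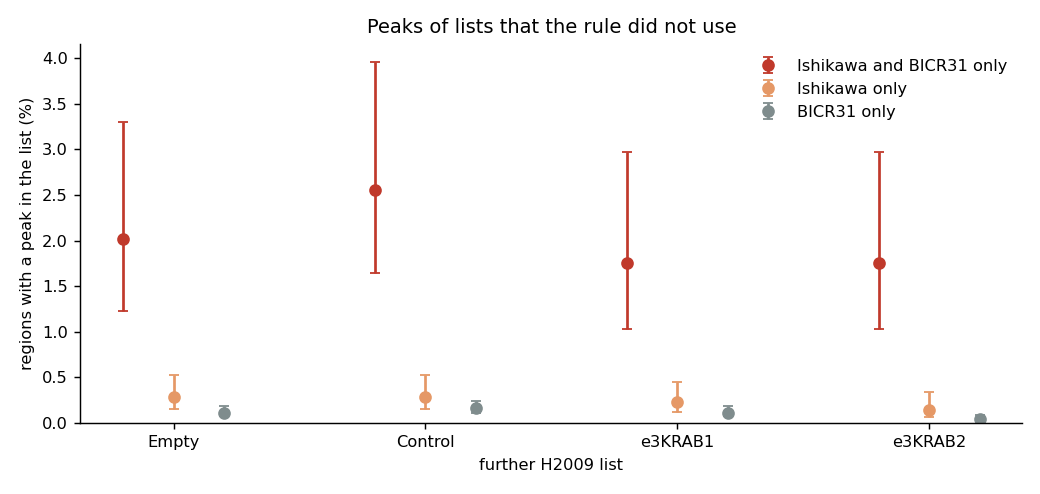
Percent of regions with a peak in each of the 4 further H2009 lists (vertical axis, lists along the horizontal axis) for members, regions of Ishikawa alone and regions of BICR31 alone. Points are shares and bars 95% Wilson intervals, which cover counting error only. Members stand between 1.75% and 2.56% and the other classes drawn below 0.3%. All regions, not drawn, stand between 1.89% and 4.42%.

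Whether these 10 regions lie in repeats or at places known to collect reads in any ChIP library was not tested, so their peak values are given without the claim that they measure acetylation. They were short, 355 to 792 bp with a median of 543 bp, against a median of 1779 bp in the 717 members without a peak in the further lists. Their peaks ranked high in the further lists, at median percentiles of 97.7 in Empty, 98.6 in Control, 98.2 in e3KRAB1 and 97.3 in the library labelled e3KRAB2. In BICR31 they had a median percentile of 74.0, against 38.5 in the 717. At chromosome 1, 91852665 to 91853222, fold enrichment was 12 in Empty, 11.3 in Control, 11.8 in e3KRAB1 and 10.4 in the library labelled e3KRAB2, beside 4.62 in BICR31 and scores of 157 and 208 in Ishikawa. At chromosome 9, 70009652 to 70010246, BICR31 had a fold enrichment of 7.09 and Ishikawa scores of 163 and 167.

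Chromosome 9 held 4 of the 10, between 66819891 and 70327665. The others lay on chromosomes 2 (132997271 to 132997704), 5 (71146619 to 71147056), 11 (85194912 to 85195276), 17 (33477949 to 33478495) and 21 (14353016 to 14353554). All 10 were among the 119 members under 1000 bp, of which 15 (12.6%, 7.79 to 19.8) had a peak in at least 1 further list. Of the 624 members of 1000 bp or more, 11 (1.76%, 0.987 to 3.13) had one. The limit of 1000 bp was set after these values had been seen.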

How the data were processed

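H3K27ac ChIP-seq of 12 samples of human cancer cell lines was read as 1 deposited peak list per sample. BWA and the build hg19 are named in the submitters' processing notes; its version, the caller, the control and any pooling of samples are not given in the sources consulted. Per the values, 6 untreated lists and the 4 further H2009 lists gave each peak a deposited fold enrichment ratio, a deposited −log10 of its p and of its q, and a score of about 10 times the second of these. For Ishikawa, a peak had only a deposited score of unstated scale. The narrowPeak lists also held a summit offset, an other kind of deposited value that was not used. The fold enrichment, or the Ishikawa score, ranked peaks within a list.

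Peaks on chromosomes 1 to 22 were kept, which left out 6391 of 224893 peaks (2.84%) of the 8 untreated lists. Regions are joined peaks sharing at least 1 bp, computed with Python 3.11.15, pandas 2.3.3 and numpy 2.4.6; the steps were tested on simulated data and recovered 200 of 200 planted members. Intervals are 95% Wilson intervals (scipy 1.17.1), or binomial intervals of a median, and cover counting error only; a count of 0 is given with the limit of 3 counts. Neighbouring regions are not independent, and no test was made.

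Named regions are the 10 with the highest lowest percentile over the 3 lists, the 5 widest, the 3 with least and the 3 nearest misses of overlap, up to 5 runs, members within 100 kb of 39 panel genes and members with a peak in all 4 further lists, the last chosen after their values were seen. Panel positions are rounded to 10 kb; they matched the GRCh38.p14 gene table in chromosome (39 of 39) and in order on all 13 chromosomes with several panel genes, and no position of that table was used. Sequences of the regions were not analysed here. Members, lists and measures were chosen with earlier results of these data known.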

Additional observations from a re-analysis of the deposited data

Results flagged for a closer look

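Chromosome X lies outside the comparisons above. By the same rule it held 16 regions with peaks in both Ishikawa lists and BICR31 and none in H358, H2009 or HCC95, out of 1898 regions on X (0.843%), against 1.08% on chromosomes 1 to 22. This is above the limit of 3 that a count of 0 allows, and was flagged as signal in data that the main description does not use. No group had the 4 samples needed to look for a sample far from the others.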

How the results depend on the processing

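Of 183 values recomputed under 16 planned settings and 3 chosen after seeing the data, 114 stayed within 1.5 times the count or within the interval or replicate SD of the value, and 69 did not. The 743 members became 718 with the excluded peaks widened by 500 bp, 717 without peaks in the further lists and 759 with chromosome X, and no other value moved in these settings.

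With 50% of the region covered by each list there were 179 members, the median BICR31 width was 923 bp and percentile 44.0, 93.9% shared 50% of the shorter peak, 6.15% had a peak in the further lists and the BICR31 share of Ishikawa regions was 5.74%. With direct overlap by 50% of the shorter peak that overlap was 100% by construction and the BICR31 share 15%. In the higher-ranked 50% of each list there were 302 members, of which 59 were among the 743. Median widths were then 1914 bp in Ishikawa and 1057 bp in BICR31, percentiles 66.7 and 69.5, 94.4% overlapped by 50%, 3.97% lay near a core region and 1.32% near an excluded peak, and the BICR31 share was 20.7%. With only Ishikawa and BICR31 cut in this way, 59 were left, with widths of 1726 and 804 bp, percentiles of 63.6 and 72.5, an overlap in 96.6%, 3.39% near an excluded peak, 6.78% in the further lists and a BICR31 share of 10.1%. Higher percentiles in both settings follow from their construction.

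With lists cut to the shortest (22850 peaks) there were 313 members, 285 of them among the 743, with a BICR31 width of 640 bp, percentiles of 43.2 in Ishikawa and 65.6 in BICR31, an overlap in 90.1%, 8.31% near a core region, 3.19% near an excluded peak, 7.03% in the further lists and a BICR31 share of 8.62%. With 500 bp around each centre 684 members were found, overlapping 595 of the 743; 48% overlapped by 50%, 15.8% lay near an excluded peak and the BICR31 share was 16.1%. With 1000 bp, added later, 73.1% overlapped and 7.54% lay near an excluded peak. With 200 bp, added later, there were 583 members, overlapping 295 of the 743, with percentiles of 45.7 and 50.9, an overlap in 32.9%, 6.69% near a core region, 50.3% near an excluded peak and a BICR31 share of 15.6%. Shorter peaks also part from excluded peaks that they touched before.

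When presence and absence both took 50% of the region covered, also added later, 3718 regions passed, with widths of 1673 and 1406 bp, percentiles of 74.0 and 71.9, an overlap in 98.4%, 67.7% near a core region, 95.4% near an excluded peak, 30.4% in the further lists and a BICR31 share of 36.8%; excluded peaks covering less than 50% then counted as absent. With HCC95 left out there were 1204 members and the BICR31 share was 23.9%.

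Leaving out 1 replicate of Ishikawa, H358 or H2009 at a time gave 825 to 1007 members, Ishikawa widths of 775 to 1219 bp and percentiles of 30.1 to 39.1, overlap in 84.7% to 92.9%, 5.01% to 9.43% near an excluded peak and a BICR31 share of 13.7% to 19.5%. The 1007 members without Ishikawa replicate 1 included 708 of the 743, and the 1001 without replicate 2 included 737. No paired analysis was possible because no result comes from a test and a shared replicate number joins different lines. Depth is unknown, so a peak absent from a list may lie under its threshold.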
